A study of Mus musculus with 4 samples.

Results

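The receptors that govern how lymphocytes enter, cross and leave lymph nodes, encoded by Ccr7, S1pr1, S1pr4, Gpr183 and Selplg, were compared between regulatory T (Treg) cells with and without the deubiquitinase CYLD. The members are probe sets that the platform annotation assigns to 1 of these gene symbols and to no other. Each of the 5 genes had 1 such probe set, among 19938 genes with a symbol of their own on the array, and all 5 passed the filter on dim genes. Treg cells are the Foxp3-expressing CD4 T cells that keep immune responses in check. CYLD removes ubiquitin chains from signalling proteins and limits NF-kB activity.

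The knockout (KO) group was 2 arrays of YFP-positive Treg cells whose donors were Cyld fl/fl Foxp3-yfp-cre, and the wild-type (WT) group 2 arrays of such cells whose donors were Cyld+/+ Foxp3-yfp-cre, all on a C57Bl6 background and aged 6 to 8 weeks. Both groups carry the Foxp3-yfp-cre allele, which makes Cre where Foxp3 is transcribed, so Cyld loss is aimed at cells that express or have expressed Foxp3. Whether other cells of the donors also lost Cyld was not tested. Affymetrix mouse gene arrays measured total RNA, and values are probe set intensities on a linear scale. The labels give the tissue as spleen with lymph nodes in one field and as spleen alone in another; how much each organ gave to an array is not stated, and its part in the results was not tested. The labels do not tie replicates to separate mice, so p-values measure only the spread between these samples, which may be technical.

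Naive and resting T cells cross from blood into lymph nodes by rolling on selectin ligands, responding to the chemokines that CCR7 reads, and arresting on vessel walls. They leave when S1PR1 draws them toward the sphingosine-1-phosphate of lymph and blood. Inside the node GPR183 reads oxysterols that position cells near the follicles. Activated T cells typically lose CCR7 and change their sphingosine-1-phosphate receptors, and transcription factors of the KLF and FOXO families are known to keep the genes for CCR7 and S1PR1 on in resting T cells.

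Of the 5 members, 2 fell and 0 rose in the KO cells. Ccr7 and S1pr1 each averaged 50.9% of their WT intensity. S1pr4, Gpr183 and Selplg did not pass the test, at 93.9%, 106% and 85.5% of the WT intensity. The test was limma on log2(intensity + 1) over 13956 genes, with a threshold of 0.05 after Benjamini-Hochberg adjustment. It called 8.3% of the tested genes in either direction, 4.79% higher and 3.5% lower in the KO cells. The median log2 fold change was -0.23 over the 5 members and -0.02 over all tested genes.

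Promoter sequences were searched for the letters of KLF and FOXO factors, which act on the genes for CCR7 and S1PR1, and of NF-kB, the pathway CYLD limits. RefSeq windows of the GRCm38.p6 build, from 250 bases before to 50 bases after the start of a gene, were matched for 2 of the 5 members, S1pr4 and Gpr183. They are shown as the windows of members that did not pass the test, and the window of Klf2, a regulator of S1pr1 described further on, is set beside them. Capitals mark matches to CACCC (KLF), GTAAACA (FOXO) or GGG and CC with 5 bases of any kind between them (NF-kB), on either strand, and matches may overlap.
S1pr4, chr10:81500088-81500387, minus strand: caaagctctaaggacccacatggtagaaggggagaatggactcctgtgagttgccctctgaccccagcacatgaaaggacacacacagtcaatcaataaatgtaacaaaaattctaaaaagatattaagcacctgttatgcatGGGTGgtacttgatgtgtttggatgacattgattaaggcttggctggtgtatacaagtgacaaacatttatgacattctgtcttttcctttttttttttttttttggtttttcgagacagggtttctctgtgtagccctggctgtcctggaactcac
Gpr183, chr14:121965144-121965443, minus strand: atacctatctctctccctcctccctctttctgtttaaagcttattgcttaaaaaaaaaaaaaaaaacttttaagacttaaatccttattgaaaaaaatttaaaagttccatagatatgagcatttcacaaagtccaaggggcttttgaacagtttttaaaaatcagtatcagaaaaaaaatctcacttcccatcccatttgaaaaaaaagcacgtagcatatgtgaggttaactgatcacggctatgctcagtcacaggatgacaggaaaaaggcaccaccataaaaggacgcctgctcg
Klf2, chr8:72318812-72319111, plus strand: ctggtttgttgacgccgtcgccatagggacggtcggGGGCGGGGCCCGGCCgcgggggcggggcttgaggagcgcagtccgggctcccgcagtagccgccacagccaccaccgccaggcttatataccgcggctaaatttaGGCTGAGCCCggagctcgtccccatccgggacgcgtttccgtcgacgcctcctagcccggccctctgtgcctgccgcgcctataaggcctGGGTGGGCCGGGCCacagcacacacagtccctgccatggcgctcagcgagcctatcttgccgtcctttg
The S1pr4 window held 1 match, to the KLF letters on the opposite strand, and the Gpr183 window held none of the 3 motifs. The Klf2 window held 1 KLF match, 5 NF-kB matches, some of which overlap each other or the KLF match, and no FOXO match. Windows of Foxo1, Gna12, Rgs16 and Rasgrp2, also described further on, were searched but are not shown. Foxo1 held 1 NF-kB match, Gna12 2 and Rgs16 5, and the 2 windows of Rasgrp2 held 6 and 5. In Rgs16 and Rasgrp2 some bases matched the NF-kB letters on both strands and count once for each, so these are not separate sites. Rgs16 held 3 KLF matches and the 2 windows of Rasgrp2 held 3 and 1, while Foxo1 and Gna12 held none. No window of these 4 genes held a FOXO match. Rgs14, another gene described further on, had no matched window. Among 32851 windows in the RefSeq table, 57.5% held the KLF letters, 3.65% the FOXO letters and 50.8% the NF-kB letters, so a match to the first or last of these is common. The matches describe letters in these windows and no binding was measured.

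Ccr7, the chemokine receptor that guides T cells across vessel walls and into the T cell zone, fell in the KO cells. It read 1174 and 1509 on the KO arrays, against 2670 and 2605 on the WT arrays. Both KO values lay well below both WT values, and the KO replicates were farther apart than the WT replicates. Ccr7 averaged 1341 ± 237 in KO cells and 2637 ± 46.4 in WT cells (SD, n = 2 each). Its log2 fold change came to -0.99 ± 0.17 (SE; limma, adjusted p = 5.22e-07), with a 95% interval from -1.32 to -0.65, which is 1.98-fold lower. Among the tested genes it was the 53rd largest fall.

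S1pr1, the sphingosine-1-phosphate receptor that T cells need to leave lymph nodes, fell by nearly the same amount. It read 947 and 1103 on the KO arrays, against 2038 and 1991 on the WT arrays, again without overlap. S1pr1 averaged 1025 ± 111 in KO cells and 2015 ± 32.7 in WT cells (SD, n = 2 each). On the log2 scale it fell by 0.98 ± 0.17 (SE; limma, adjusted p = 6.50e-07), with a 95% interval from -1.31 to -0.65, the 58th largest fall. For both genes KO replicate 1 was the lower of the KO arrays. In RNA of a sorted population, fewer cells that express a receptor and less of its RNA per cell cannot be told apart, and receptor protein at the cell surface was not measured.

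S1pr4, a second sphingosine-1-phosphate receptor of lymphocytes that is not the main driver of exit, did not pass. It read 607 and 792 on the KO arrays, against 767 and 723 on the WT arrays, and both WT values lay between the KO values. Its difference on the log2 scale was -0.10 ± 0.17 (SE; limma, adjusted p = 0.790), with a 95% interval from -0.43 to 0.23.

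Gpr183, the oxysterol receptor also called EBI2, did not pass either. It read 647 and 500 on the KO arrays, against 569 and 512 on the WT arrays, so that the groups overlapped. Its difference on the log2 scale was 0.08 ± 0.17 (SE; limma, adjusted p = 0.848), with a 95% interval from -0.26 to 0.41.

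Selplg encodes PSGL-1, the mucin-like protein on which leukocytes roll when selectins bind it. It read 1421 and 1477 on the KO arrays, against 1699 and 1688 on the WT arrays. Both KO values were lower than both WT values, but the log2 fold change of -0.23 ± 0.17 did not pass (SE, limma adjusted p = 0.484, 95% interval from -0.56 to 0.11). Groups without overlap were found for 3 of the 5 members and for 48.7% of all tested genes. Selplg had the closest replicates of the 5 members in both groups, with a gap of 0.06 between the KO arrays and 0.01 between the WT arrays on the log2 scale.

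**Figure D1:**
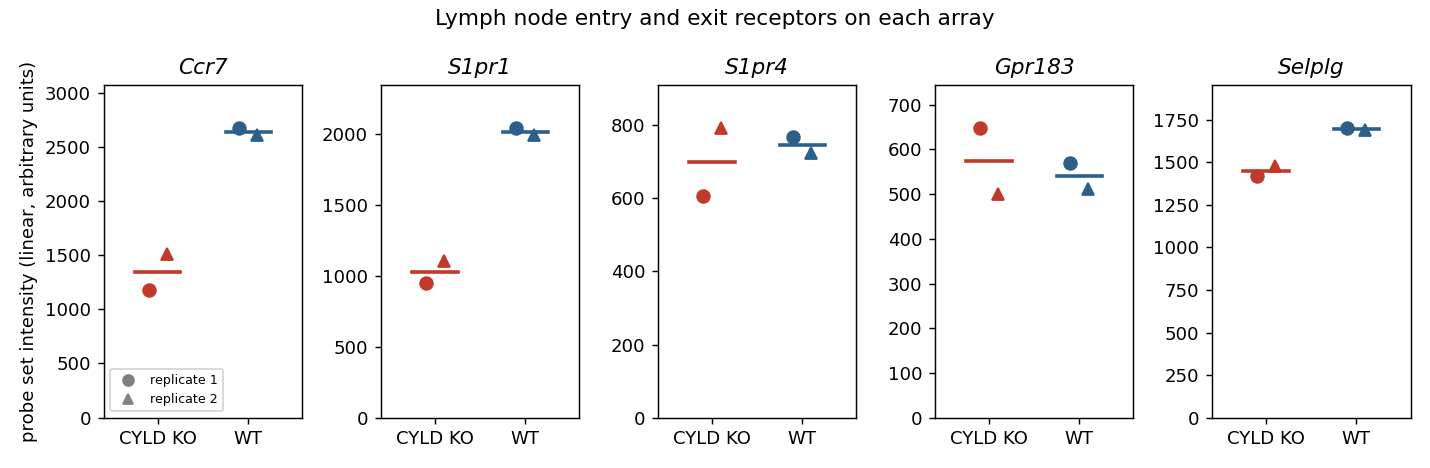
Probe set intensity (linear scale, arbitrary units) of the 5 members on each array, with CYLD KO left of WT in each panel; circles are replicate 1, triangles replicate 2 and bars the mean of 2 arrays. The KO means of Ccr7 and S1pr1 are 50.9% of their WT means, while the KO values of S1pr4 and Gpr183 spread around the WT values.

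The intervals leave different room for each of the members that did not pass. For S1pr4 the interval reaches down to 0.740 and up to 1.17 times the WT level, for Gpr183 from 0.837 to 1.33 times, and for Selplg from 0.679 to 1.08 times. The same interval for Ccr7 runs from 0.401 to 0.636 times the WT level and for S1pr1 from 0.403 to 0.639 times. A p that misses the threshold does not show that a gene was equal in both groups, but a fall as large as that of Ccr7 lies outside the intervals of all the other 3.

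The difference in response between members was examined for all 10 pairs, as the difference of their log2 fold changes with a 95% interval that treats the members' errors as independent. Between Ccr7 and S1pr1 it was -0.01, with an interval from -0.48 to 0.46. Ccr7 fell by more than Selplg by 0.76 (difference -0.76, interval from -1.23 to -0.29), more than S1pr4 (difference -0.88, from -1.35 to -0.41) and more than Gpr183 (difference -1.06, from -1.53 to -0.59). S1pr1 against the same 3 members gave differences of -0.75, -0.88 and -1.05, with intervals that also exclude 0. In all 6 of these pairs the within-array log2 ratio of the genes was lower on both KO arrays than on both WT arrays. These ratios come from the same values as the fold changes and are not a separate test. The ratio of S1pr1 to S1pr4, the pair of sphingosine-1-phosphate receptors, was 0.64 and 0.48 on the KO arrays, against 1.41 and 1.46 on the WT arrays on the log2 scale. The remaining 3 pairs, among S1pr4, Gpr183 and Selplg, had intervals that include 0; the ratio of Gpr183 to Selplg was nevertheless higher on both KO arrays (-1.13 and -1.56) than on both WT arrays (-1.58 and -1.72), while the ratios of the other two pairs overlapped.

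**Figure D2:**
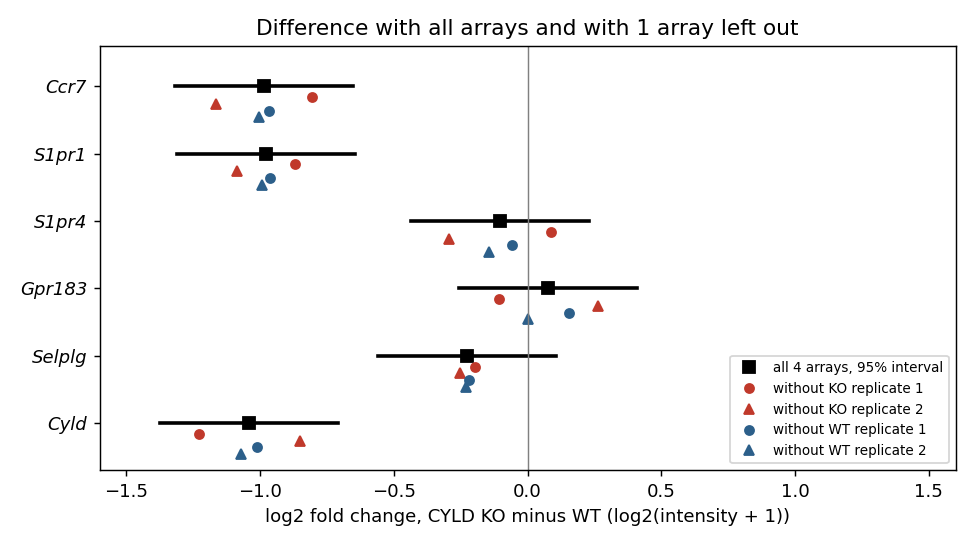
Log2 fold change (horizontal axis, CYLD KO minus WT) of the 5 members and Cyld; squares and bars are the fit to all 4 arrays with its 95% interval, and coloured symbols are fits with 1 array left out. Ccr7 and S1pr1 stay between -1.17 and -0.80 in every fit drawn, while S1pr4 and Gpr183 have symbols on both sides of 0.

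Leaving out 1 array at a time kept Ccr7 between -1.17 and -0.80 and S1pr1 between -1.09 and -0.87, with the largest limma adjusted p at 0.00271 and 0.00298. In such a fit 1 group is a lone array that is assumed to vary like the other group, so the p-values are no measure of replication; the standard error of Ccr7 was 0.18 without a KO array and 0.23 without a WT array. The smallest falls were seen without KO replicate 1 for both. S1pr4 gave 0.09 and Gpr183 -0.11 without KO replicate 1, each the opposite sign of the value from all arrays, and Gpr183 was at 0.26 without KO replicate 2. In this fit the variance is shared by all tested genes, so that each has the same standard error of 0.17. With each gene's own variance in place of the pooled one, an alternative added with earlier results known, the fit called 0 genes (1814 had an unadjusted p under 0.05), and Ccr7 and S1pr1 had limma adjusted p = 0.342 and 0.281.

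**Figure D3:**
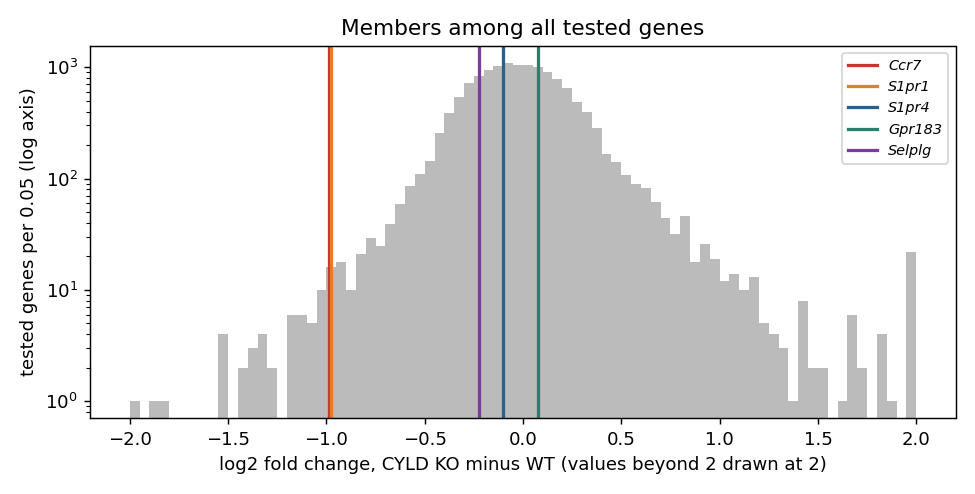
Number of tested genes (vertical axis, log scale) by log2 fold change, CYLD KO minus WT (horizontal axis), for 13956 genes; coloured lines mark the 5 members. Ccr7 and S1pr1 lie in the lower tail at -0.99 and -0.98, and the other 3 lie within the main peak.

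Cyld itself read 284 and 218 on the KO arrays, against 524 and 502 on the WT arrays (log2 fold change -1.04 ± 0.17, limma adjusted p = 8.96e-08); the labels do not give the deleted part, so this probe set may lie outside it. Array medians were 103 and 99.0 for KO and 101 and 105 for WT, and the number of arrays limits the precision. Across tested genes, which are not independent replicates, the KO arrays correlated at r = 0.974 and the WT arrays at 0.985. Sex-linked genes, looked up with earlier results known, differed between the KO replicates, and Kdm5d, Eif2s3y and Xist passed the test between the groups. Y-linked Kdm5d read 268 and 127 on the KO arrays, against 271 and 275 on the WT arrays, and Eif2s3y read 221 and 98.9 on the KO arrays, against 253 and 219 on the WT arrays (limma adjusted p = 0.0160 and 0.00243); Uty, at 283 and 132 in KO and 225 and 220 in WT, did not pass. Xist read 1630 and 2321 on the KO arrays, against 1306 and 1403 on the WT arrays (limma adjusted p = 0.0291). The p-values of Kdm5d, Eif2s3y and Xist use the standard error shared by all tested genes, not each gene's own spread between arrays. The calls of Kdm5d and Eif2s3y rest on the low values of KO replicate 2, and the groups overlapped for Eif2s3y. The part of a different mix of sexes in the results on Ccr7 and S1pr1 was not tested. Without KO replicate 2 their log2 fold changes were -1.17 and -1.09. On the remaining KO array Xist and Uty were above both WT arrays, Kdm5d was just below both, and Eif2s3y lay between them. Without WT replicate 1, without WT replicate 2 and without KO replicate 1 the counts over all genes were 289, 252 and 918 higher and 118, 181 and 767 lower, against 669 higher and 489 lower with all arrays.

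The sort was checked against marker lists. The Treg and T cell markers were bright on every array, with summed intensities of 16220 and 14094 in KO and 16319 and 15865 in WT, and 0 of 8 passed limma's threshold, with 1 at an unadjusted p under 0.05. Cd3e, Il2ra and Cd4, the brightest of them, had log2 fold changes of 0.01, -0.45 and 0.11. Foxp3, given as the defining factor of Treg cells, read 1697 and 1553 on the KO arrays, against 2016 and 1881 on the WT arrays. Among macrophage and monocyte markers 9 of 10 were lower in KO and 0 higher, with summed intensities of 969 and 1220 in KO and 2387 and 2167 in WT. The 9, namely C1qa, C1qb, C1qc, Spic, Vcam1, Adgre1, Csf1r, Cd68 and Hmox1, had log2 fold changes from -1.53 to -0.52. Vcam1, the brightest of them, read 285 and 327 on the KO arrays, against 683 and 710 on the WT arrays. None was listed at 0, because the lowest intensity of any probe set was 26.6, and the part of macrophage RNA in the fall of Ccr7 and S1pr1 was not tested. The sums of B cell markers, 690 and 642 in KO and 692 and 695 in WT, and of dendritic cell markers, 737 and 749 in KO and 704 and 723 in WT, differed little between groups, and 0 of 4 and 0 of 5 tested members passed in limma, with 1 and 0 at an unadjusted p under 0.05. Their brightest members were Cd79b, Pax5 and Blk for B cells and Zbtb46, Xcr1 and Batf3 for dendritic cells. Cd79b read 202 and 188 on the KO arrays, against 273 and 259 on the WT arrays (log2 fold change -0.45, limma adjusted p = 0.0850). Pax5 and Blk went the other way, at 0.24 and 0.17, so a like sum can hide opposite differences. The sums also hold markers too dim to be tested. All granulocyte and erythroid markers with a probe set were too dim to be tested. Of 4 tested CD8 T and NK cell markers 1 rose, Eomes, a transcription factor also made by effector T cells, which read 297 and 342 on the KO arrays, against 109 and 98.9 on the WT arrays.

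**Figure D4:**
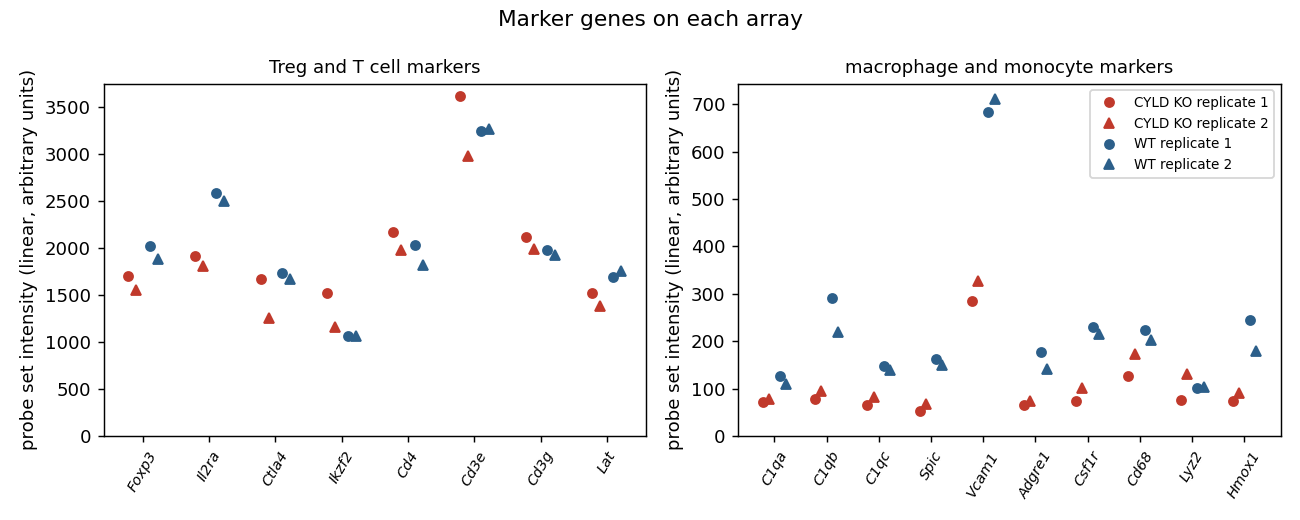
Probe set intensity (linear scale, arbitrary units) of each Treg and T cell marker (left) and each macrophage and monocyte marker (right), with CYLD KO in red left of WT in blue for each gene; circles are replicate 1 and triangles replicate 2. None of the 8 T cell markers passed the test, while 9 of the 10 macrophage markers are lower on the KO arrays.

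The genes around the receptors were described from lists of their ligands, regulators and effectors. Of 46 tested genes on these lists 2 rose and 4 fell, 13.0% in all, beside 8.3% of all tested genes, and their median log2 fold change was -0.07. The 2 that rose were Rgs16 and Gna12, and the 4 that fell were Klf2, Foxo1, Rasgrp2 and Rgs14. These counts depended on single arrays: 4 higher and 3 lower without KO replicate 1, 1 and 4 without KO replicate 2, 1 and 0 without WT replicate 1, and 0 and 1 without WT replicate 2.

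Both transcription factors on the list of genes that control S1pr1 fell. Klf2, a factor that switches on S1pr1 in T cells, read 453 and 548 on the KO arrays, against 805 and 734 on the WT arrays (log2 fold change -0.62 ± 0.17, limma adjusted p = 0.00521). Foxo1, which acts upstream of Klf2 and Ccr7, read 1503 and 1634 on the KO arrays, against 2377 and 2200 on the WT arrays (-0.54 ± 0.17, limma adjusted p = 0.0206). Neither gene's groups overlapped. Their estimated falls were smaller than those of Ccr7 and S1pr1, but whether the falls differ was not tested. The calls of Klf2 and Foxo1 depended on single arrays. With 1 array left out at a time, the log2 fold change ran from -0.76 to -0.49 for Klf2 and from -0.60 to -0.48 for Foxo1.

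The other 4 tested genes of that list did not pass. Cd69, whose product binds S1PR1 and takes it off the cell surface, read 1211 and 981 on the KO arrays, against 909 and 899 on the WT arrays (log2 fold change 0.27, limma adjusted p = 0.379). Both KO values were above both WT values, by less than the test required. Arrb1, a beta-arrestin gene, and Dnm2, a dynamin gene, had log2 fold changes of -0.47 and -0.41 (limma adjusted p = 0.0664 and 0.128) and Arrb2, the other beta-arrestin gene, one of 0.20 (0.539), with both KO values, 566 and 715, above the WT values of 554 and 551. These 3 were named after their values were seen.

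Among G proteins, RGS proteins and migration effectors 2 of 18 tested genes rose and 2 fell. Rgs16, which shortens signalling from chemokine receptors, read 818 and 618 on the KO arrays, against 447 and 418 on the WT arrays (log2 fold change 0.72 ± 0.17, limma adjusted p = 7.84e-04). Gna12, a G protein alpha subunit, read 783 and 931 on the KO arrays, against 587 and 590 on the WT arrays (0.54 ± 0.17, limma adjusted p = 0.0233). In both genes every KO value exceeded every WT value.

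Rasgrp2, an activator of the small GTPase Rap in integrin adhesion, had the largest fall of the lists. It read 281 and 343 on the KO arrays, against 563 and 506 on the WT arrays (log2 fold change -0.78 ± 0.17, limma adjusted p = 1.63e-04). Rgs14, an RGS protein that also binds Rap and Ras, read 172 and 148 on the KO arrays, against 242 and 230 on the WT arrays (-0.56 ± 0.17, limma adjusted p = 0.0162). The calls of Rasgrp2, Rgs16, Gna12 and Rgs14 depended on single arrays. With 1 array left out at a time, Rasgrp2 ran from -0.93 to -0.64 and Rgs14 from -0.67 to -0.45 on the log2 scale. Rgs16 ran from 0.51 to 0.92 and Gna12 from 0.41 to 0.66. Rac2 and Dock2, the brightest genes of this list and part of the machinery for lymphocyte movement, did not pass, at log2 fold changes of -0.05 and 0.15.

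Of 8 tested genes for other sphingosine-1-phosphate receptors and for the making, breakdown and export of the lipid, 0 passed in limma, with 1 at an unadjusted p under 0.05. That was S1pr2, a receptor that acts through G proteins of the Gna12 family and restrains movement. It read 320 and 349 on the KO arrays, against 227 and 253 on the WT arrays, without overlap, and its log2 fold change of 0.48 was just short of the threshold (limma adjusted p = 0.0549). Sgpp1, a phosphatase of the lipid and the brightest gene of the list, had a log2 fold change of -0.30 (limma adjusted p = 0.317).

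For Gpr183, 0 of 4 tested genes that make or break down its oxysterol ligands passed in limma, and 0 were at an unadjusted p under 0.05. All 4 read between 88.1 and 173 on every array, near the array medians. Ch25h, the hydroxylase that starts ligand synthesis, had a log2 fold change of -0.15, and Hsd3b7, which degrades the ligand, one of 0.14.

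For Selplg, 0 of 9 tested genes for glycosyltransferases, sulfotransferases and selectins passed in limma, with 1 higher and 1 lower at an unadjusted p under 0.05. Tpst2, which sulfates the tyrosines that selectins read on PSGL-1, and B4galt1, a galactosyltransferase, had log2 fold changes of -0.08 and -0.05. Fut7, the fucosyltransferase that completes selectin ligands, read 85.4 and 98.2 on the KO arrays, against 70.5 and 64.1 on the WT arrays (log2 fold change 0.44, limma adjusted p = 0.0909). St3gal6, a sialyltransferase gene, read 119 and 113 on the KO arrays, against 145 and 150.2 on the WT arrays (-0.35, limma adjusted p = 0.220). Both were named after their values were seen, as the 2 genes of this list with an unadjusted p under 0.05. For Ccr7, its ligand gene Ccl19 had a log2 fold change of -0.01, and the scavenger receptor gene Ackr4 was too dim to be tested.

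**Figure D5:**
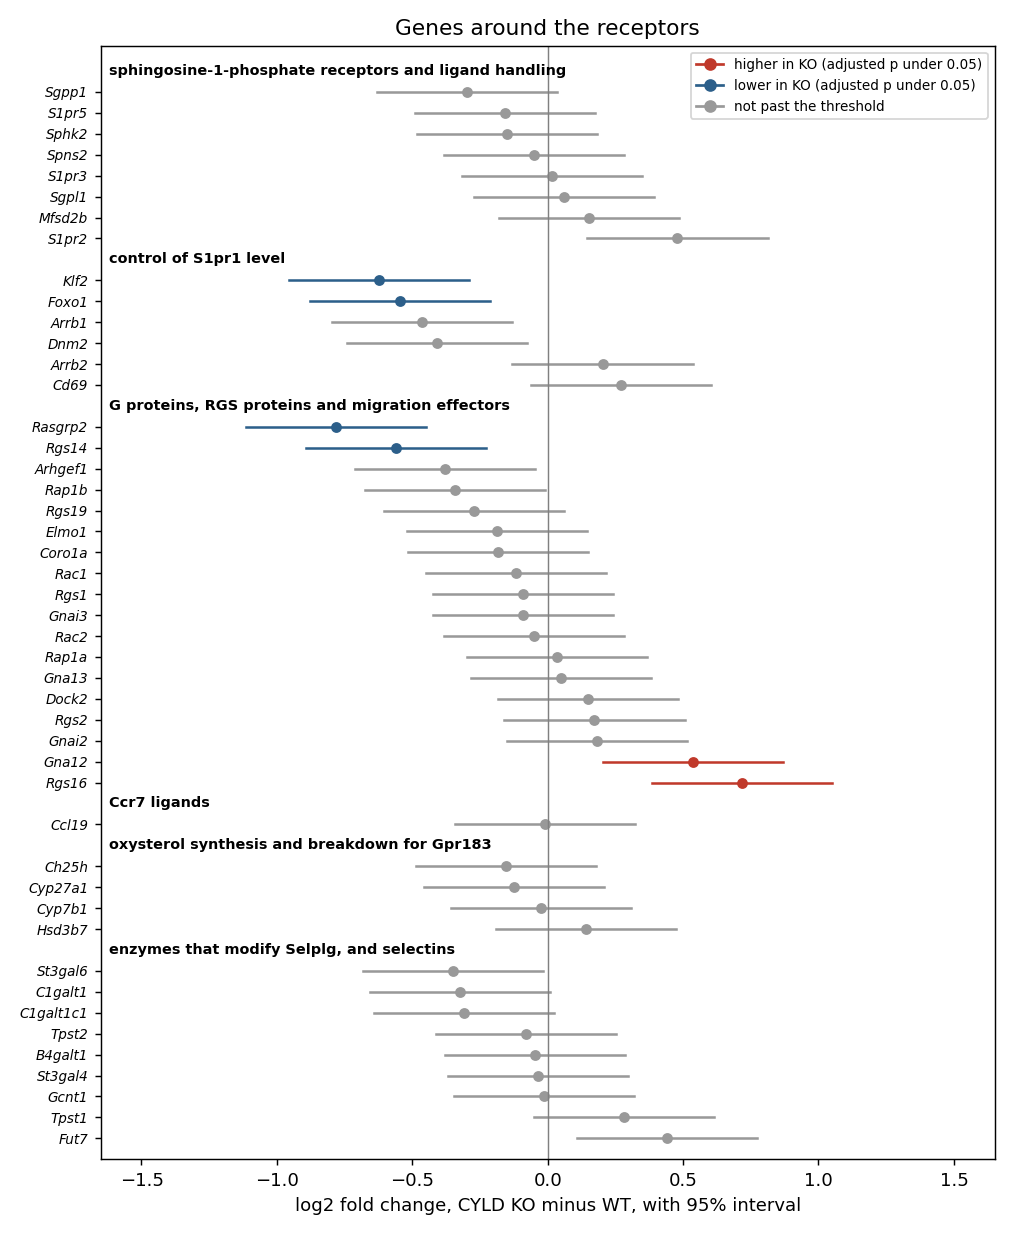
Log2 fold change (horizontal axis, CYLD KO minus WT, with its unadjusted 95% interval) of the 46 tested genes around the receptors, grouped by role; red genes were higher and blue genes lower in KO at an adjusted p under 0.05, and grey genes did not pass. Klf2, Foxo1, Rasgrp2 and Rgs14 are blue and Rgs16 and Gna12 are red.

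The genes most like each fallen receptor over the 4 arrays were found by the root mean square difference of log2 values, each gene centred on its own mean. For Ccr7 they were Znrf3 (difference 0.02), C1qc (0.03) and Slfn1 (0.04), and for S1pr1 they were Snora16a (0.03), C1qc (0.04) and Znrf3 (0.04). S1pr1 was the fifth closest gene to Ccr7 and Ccr7 the seventh closest to S1pr1, with a difference of 0.05. The other 3 members were far down the order, with differences from Ccr7 of 0.44 for S1pr4, 0.59 for Gpr183 and 0.40 for Selplg. With 4 arrays in 2 groups this measure mostly orders genes by the size of their fall, and C1qc is one of the macrophage markers.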

How the data were processed

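The authors deposited 1 table of probe set intensities for the 4 arrays; that the scale is linear follows from its values, and background correction, summarisation and scaling are not given in the sources used here. RNA was taken with a column kit and labelled as biotinylated cRNA, per the labels' protocols. Of 35557 probe sets, 21789 had exactly 1 gene symbol in the platform annotation, 1621 several and 12147 none listed; the first were used, and 21698 of them matched a RefSeq gene of GRCm38.p6.

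Intensities were converted to log2(value + 1), which understates the change of dim genes. Where a gene had several probe sets, that with the highest mean stood for it; 13956 of 19938 genes, those brighter on average than the lowest 30%, were tested with limma 3.58.1 (R 4.3.3, lmFit and eBayes), KO against WT. P-values were adjusted by the Benjamini-Hochberg method over all tested genes, at 0.05. The fit was tested on simulated data that gave every gene the same spread, so that test cannot speak to spreads that differ between genes.

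Members, lists and tests were chosen with earlier results of these data known. By rule the text names the members, Cyld, list genes past the threshold, the 2 brightest genes of each pathway list, the 3 brightest markers of a list, and the 3 genes closest in pattern to each called member. Foxp3, sex-linked genes and 5 further pathway genes were named outside it; the brightest CD8, granulocyte and erythroid markers that did not pass are given by their list alone. Alternatives varied the filter, scaling, pseudocount, variance model, probe set choice and replicate block, and left out each array.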

Additional observations from a re-analysis of the deposited data

How the results depend on the processing

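With all 4 arrays, 9 alternatives of filter, scaling, pseudocount, variance model, probe set choice and block left every member on its side of the threshold with its sign; Ccr7 ran from -0.99 to -0.95 and S1pr1 from -0.98 to -0.96 on the log2 scale. The replicate numbers are not said to mark a shared mouse or day, and the deviations of same-numbered arrays correlated at -0.09 across genes; with the replicate block 603 genes were higher and 429 lower, and no member's call changed. Without 1 array, the genes higher in KO numbered 252 to 918 and those lower 118 to 767, the pathway genes higher 0 to 4 and lower 0 to 4, while S1pr4 ran from -0.29 to 0.089 and Gpr183 from -0.11 to 0.26, the signs turning without KO replicate 1 (0.089 and -0.11). With no pooling of variances, an ordinary t-test per gene called 0 genes higher and 0 lower, pathway genes included. In that test 1814 genes had an unadjusted p under 0.05. Ccr7 (-0.99), S1pr1 (-0.98) and Cyld (-1.04) missed the threshold (t-test, adjusted p = 0.342, 0.281 and 0.342). Each such fit has 2 residual degrees of freedom.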
